A study of Mus musculus with 8 samples.

Results

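The genes described here encode the core of the epidermal desmosome: the desmosomal cadherins Dsg1a, Dsg1b, Dsg3, Dsc1, Dsc2 and Dsc3, the plakin Dsp, the plakophilins Pkp1 and Pkp3, and plakoglobin (Jup). They were listed by gene symbol, and all 10 were found among the 21885 named genes of the deposited table. RNA was sequenced from 8 libraries of mouse skin. The 4 control libraries came from skin treated with MC903, the vitamin D analogue calcipotriol, which is used on mouse skin to model atopic dermatitis. The other 4 came from skin given MC903 together with phytic acid (the group MC903 plus phytic acid), the inositol hexaphosphate of plant seeds. All 8 libraries therefore carry MC903, and no group of untreated skin was analysed here. The labels used here give no strain, age, sex, dose, duration of treatment or body site. Nor do they say whether each library came from a separate mouse, so the p-values measure only how far these libraries vary, which may be technical.

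Desmosomes are the rivets that hold keratinocytes together. Desmogleins and desmocollins reach across the gap between neighbouring cells, while inside the cell plakoglobin and plakophilins bind the cadherin tails and desmoplakin ties the plaque to keratin filaments. In the epidermis the cadherins are layered: Dsg3 and Dsc3 are known from the lower layers, Dsg1 and Dsc1 from the differentiated upper layers. Mice have more than one Dsg1 gene where humans have a single one.

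With phytic acid the desmosome genes changed in makeup rather than all in one direction. Dsg1a rose, while Dsg1b, Dsg3, Dsc1, Dsc2, Pkp1, Pkp3 and Jup fell, and Dsc3 and Dsp were not called. A gene was called when its adjusted p was under 0.05 by limma with Benjamini-Hochberg adjustment over all 12165 genes tested. All 10 passed the expression filter, an FPKM (reads or fragments divided by gene length and by library size) of at least 1 in at least 4 libraries. Of the 10, 1 was called higher and 7 lower, whereas 25.8% of all tested genes were called, 14.2% higher and 11.6% lower. The median log2 fold change of the 10 was -0.78, against 0.05 for all tested genes. For 8 of the 10 genes, 7 lower and 1 higher, no value of one group lay within the range of the other, which held for 27.3% of all tested genes (13.0% lower, 14.3% higher). Every fold change below is MC903 plus phytic acid minus MC903 on the log2(FPKM + 1) scale, given with its SE, and each mean is of FPKM with its SD over 4 libraries.

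**Figure D1:**
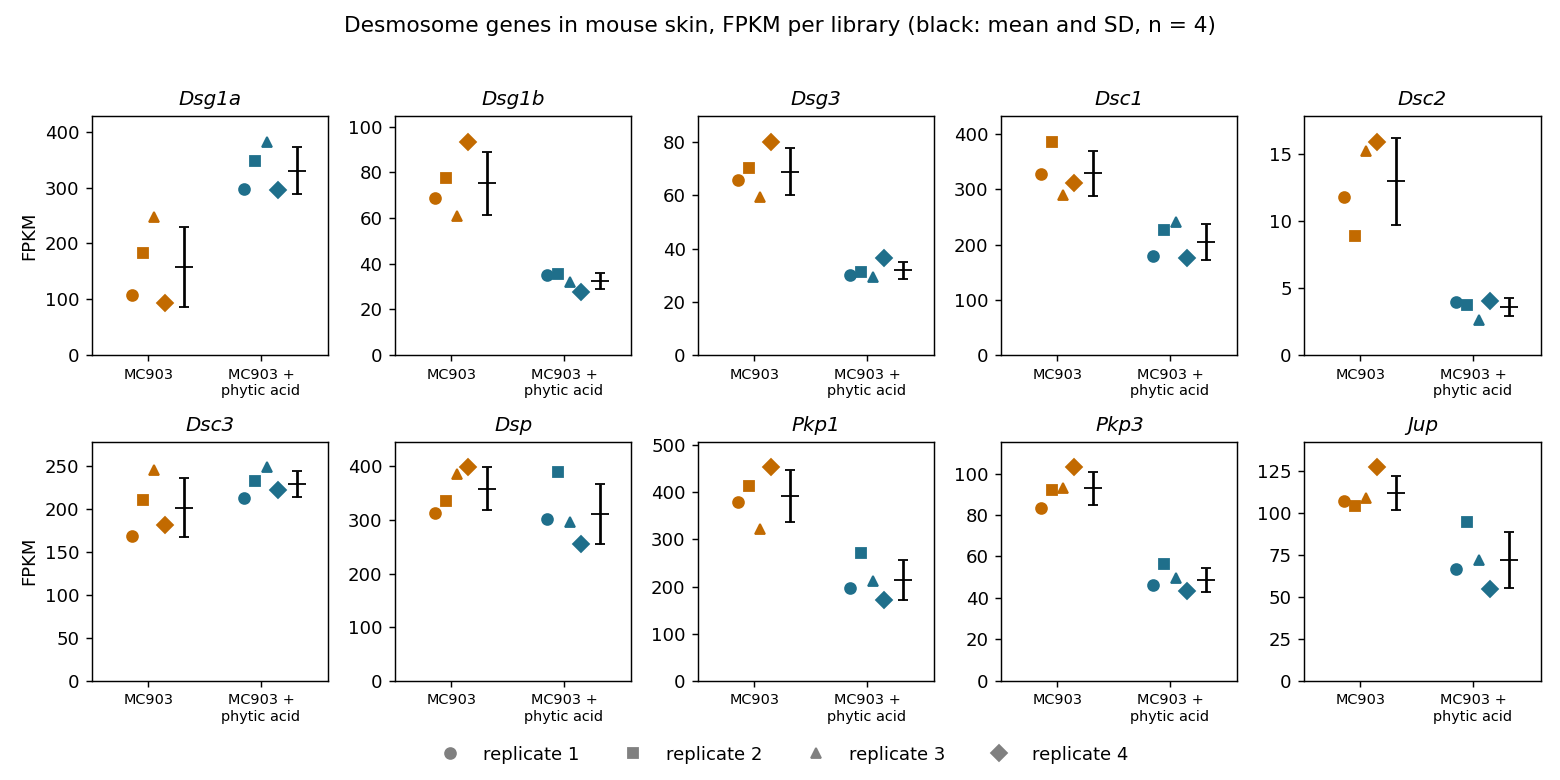
FPKM of the 10 desmosome genes (y axes, each from 0) in MC903 skin and in MC903 plus phytic acid skin (x axes); each point is a library, its shape the replicate number, and the black bars are the mean and SD (n = 4). Dsg1a is higher in all 4 phytic acid libraries, 7 genes are lower in all 4, and the groups overlap for Dsc3 and Dsp.

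The libraries held 31676934 to 37639476 reads with MC903 and 38310034 to 42997271 with phytic acid, as recovered from the FPKM steps. The smallest read number behind a value of the 10 genes was 594 (Dsc2 in phytic acid replicate 3). The basal keratin pair that defines keratinocytes was present in every library, Krt5 at a mean of 888 FPKM with MC903 and 814 with phytic acid (not called) and Krt14 at 5275 and 1357, a fall (log2 fold change -1.91 ± 0.28, adjusted p = 0.00170 by limma). Summed FPKM of 10 markers shared by most epithelia was 386 to 453 with MC903 and 362 to 413 with phytic acid. Of these 10 markers, 1 was called higher and 3 lower, and their median change was -0.23 (log2). The sums of several cell types differed without overlap. The 11 basal keratinocyte markers summed to 4477 to 8101 FPKM with MC903 and 2742 to 3234 with phytic acid. Taken singly, however, these markers were split: 2 went up and 2 went down by call, and their median change was -0.12 (log2). The lower sum therefore does not stand for the basal markers as a set. The 11 skeletal muscle markers summed to 3446 to 4072 and 7596 to 8777 FPKM, the 8 adipocyte markers to 214 to 647 and 757 to 1663, and the 10 suprabasal keratinocyte markers to 3333 to 5836 and 7701 to 9820. Sums were also higher with phytic acid for fibroblast (446 to 529 and 592 to 1141), nerve and Schwann cell (80.2 to 107 and 127 to 170.0) and T cell markers (4.66 to 9.73 and 12.2 to 31.8). They overlapped for sebaceous gland (808 to 982 and 625 to 1635), endothelium (47.8 to 65.2 and 53.9 to 62.7) and myeloid markers (299 to 615 and 547 to 984). Taken singly, however, 6 of 9 tested myeloid markers were called higher and 0 lower, with a median change of 0.77 (log2). The overlap of the myeloid sums therefore does not stand for these markers as a set. None of the markers in these lists was at 0 throughout. In bulk skin, fewer cells of a type and less RNA per cell cannot be told apart, and the part of these shifts in the results was not tested. With each library centred on the mean log2 level of the epithelial markers, or of the basal keratinocyte markers, 1 of the 10 desmosome genes was called higher and 7 lower. This centring moved the median log2 fold change of all tested genes only from 0.05 to 0.12 and 0.11. It therefore did not adjust for the fall of the basal marker sum. MC903 replicate 3 stood apart by its hair follicle genes (14 markers, 4591 FPKM in sum, against 451 to 607 in the other MC903 libraries). With phytic acid this sum was 45.9 to 61.6 FPKM. Most of the sum in MC903 replicates 1, 2 and 4 was Tchh (458, 539 and 437 FPKM), which stood at 21.1 ± 3.23 FPKM with phytic acid. Without MC903 replicate 3 the calls of the 10 desmosome genes were again 1 higher and 7 lower.

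The desmogleins went in opposite directions. Dsg1a encodes a desmoglein 1, the desmoglein of differentiated keratinocytes and the antigen of pemphigus foliaceus. In MC903 replicates 1 to 4 its level was 107, 183, 248 and 93.1 FPKM. With phytic acid it stood at 297, 348, 382 and 295 FPKM. Every phytic acid library was thus above every MC903 library, and the MC903 libraries varied most, with replicates 3 and 2 well above replicates 1 and 4. The mean went from 158 ± 71.7 to 330.3 ± 42.5 FPKM, a log2 fold change of 1.16 ± 0.28 (adjusted p = 0.0160 by limma). Suprabasal keratinocyte markers were also highest in MC903 replicates 3 and 2 (5836 and 5778 FPKM in sum, against 3361 and 3333), and the part of this in the Dsg1a values was not tested. Without MC903 replicate 3 the log2 fold change of Dsg1a was 1.42, and without MC903 replicate 1 it was 1.02 with an adjusted p of 0.0490.

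Dsg1b, the neighbouring copy of Dsg1a, showed the reverse. Its values were 68.6, 77.6, 61.1 and 93.4 FPKM with MC903 and 34.9, 35.6, 31.8 and 27.5 with phytic acid. The lowest MC903 library lay well above the highest phytic acid library. Dsg1b fell from 75.2 ± 13.9 to 32.5 ± 3.72 FPKM (log2 fold change -1.18 ± 0.14, adjusted p = 0.000769 by limma). In MC903 replicate 4 both copies stood at the same level, whereas in the phytic acid libraries Dsg1b was 0.0833 to 0.118 of Dsg1a.

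Dsg3, the desmoglein of the lower epidermis and the pemphigus vulgaris antigen, fell alongside Dsg1b. It stood at 65.8, 70.5, 59.5 and 80.2 FPKM with MC903 and at 30.1, 31.4, 29.5 and 36.4 with phytic acid. Both groups were tight and far apart, and MC903 replicate 4 and phytic acid replicate 4 were the highest of their groups. The mean fell from 69.0 ± 8.71 to 31.8 ± 3.11 FPKM (log2 fold change -1.09 ± 0.11, adjusted p = 0.000462 by limma).

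The coding sequences of Dsg1a and Dsg1b are 96.3% identical (longest open reading frames of 3174 and 3183 bases), so reads can match both. Of all stretches of 100 bases in the Dsg1a transcript, 21.9% also occur exactly in that of Dsg1b, and 31.6% of those of Dsg1b occur in Dsg1a. For stretches of 50 bases these shares were larger, 31.6% and 45.5%. Of the stretches of 100 bases, 9.09% of those of Dsg1a and 10.5% of those of Dsg1b also occur in Dsg1c. How such reads were shared out is not stated in the labels, and the single values of both genes are uncertain to that extent. If each shared read was counted once, their sum does not depend on the choice between the 2 copies, apart from the gene length used. The sum would change if shared reads were dropped, counted for both copies or given to Dsg1c. It was 176, 260.3, 309 and 186 FPKM with MC903 and 332, 383, 414 and 322 with phytic acid, again without overlap. No stretch of 100 bases is shared between either Dsg1 copy and Dsg3, among the 3 desmocollins or between Pkp1 and Pkp3.

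**Figure D2:**
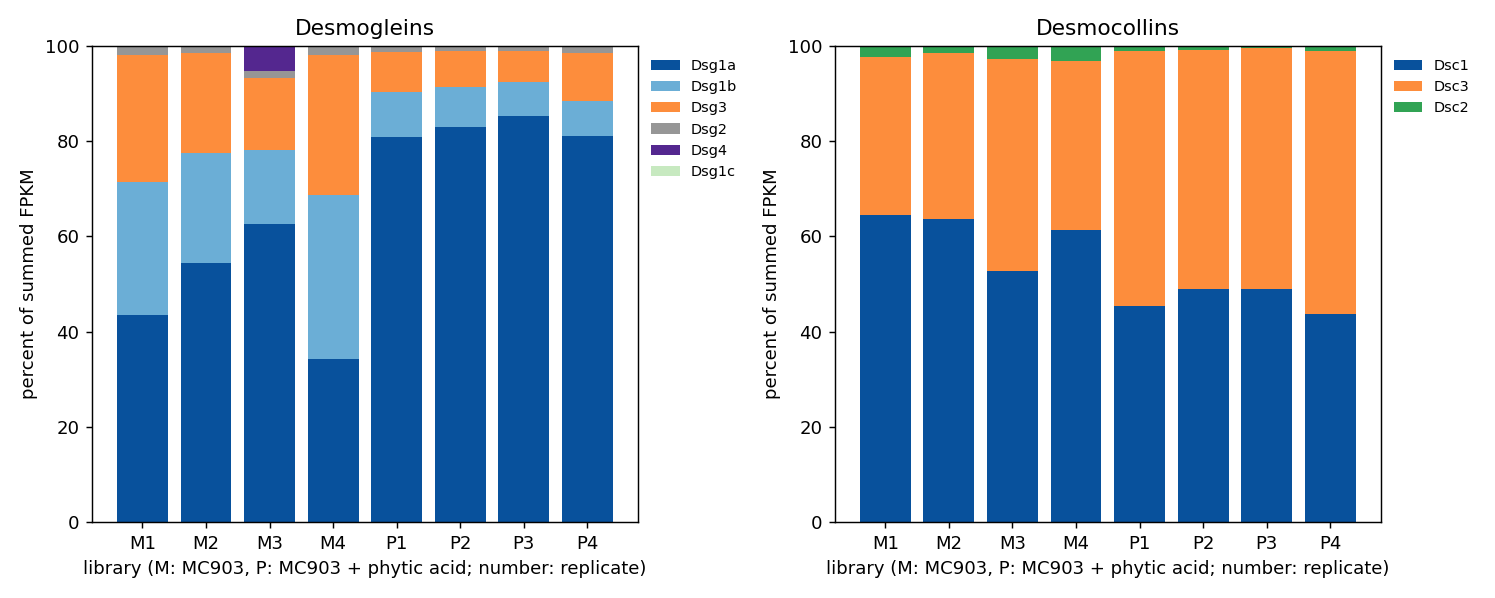
Share of each gene in the summed FPKM of its family (y axes, percent) in each library (x axes; M, MC903; P, MC903 plus phytic acid; numbers are replicates). Dsg1a holds 34.3% to 62.7% of desmoglein FPKM in the MC903 libraries and 80.9% to 85.3% in the phytic acid libraries, and Dsc3 takes the larger share of desmocollin FPKM in all 4 phytic acid libraries.

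As a share of all desmoglein FPKM (Dsg1a, Dsg1b, Dsg1c, Dsg2, Dsg3 and Dsg4), Dsg1a made up 48.8% ± 12.4 (SD, n = 4) with MC903 and 82.5% ± 2.07 with phytic acid. Dsg1b went from 25.2% ± 7.96 to 8.17% ± 1.08 and Dsg3 from 23.1% ± 6.41 to 8.07% ± 1.45. The phytic acid libraries were closely alike in this makeup, while the MC903 libraries spread widely. Total desmoglein FPKM was 246, 336, 395 and 272 with MC903 and 367, 419, 449 and 364 with phytic acid, so the groups overlapped in the total but not in the shares of these 3 genes.

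The desmocollins, partners of the desmogleins in the same junction, shifted toward Dsc3. Dsc1, the desmocollin of the upper layers, stood at 328, 386, 289 and 312 FPKM with MC903 and at 179, 226, 240.2 and 175 with phytic acid. The groups did not overlap, and phytic acid replicates 2 and 3 came nearest to the MC903 range. Dsc1 fell from 329 ± 41.1 to 205 ± 32.7 FPKM (log2 fold change -0.68 ± 0.15, adjusted p = 0.00953 by limma). It therefore moved opposite to Dsg1a, a desmoglein of the upper layers, but in the same direction as Dsg1b, the neighbouring Dsg1 copy.

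Dsc2, the most widespread desmocollin in other epithelia and the lowest of the 10 genes in skin, had the largest fall among them. It stood at 11.8, 8.88, 15.2 and 15.9 FPKM with MC903 and at 3.94, 3.74, 2.62 and 4.01 with phytic acid. All phytic acid libraries were below the lowest MC903 library, replicate 2. The mean went from 12.9 ± 3.25 to 3.58 ± 0.649 FPKM (log2 fold change -1.59 ± 0.18, adjusted p = 0.000650 by limma).

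Dsc3, the desmocollin of the lower layers, was the only cadherin of the 6 without a call. Its values were 168, 210.4, 245 and 181 FPKM with MC903 and 212, 232, 248 and 222 with phytic acid. The ranges overlapped, since MC903 replicate 3 lay above 3 of the phytic acid libraries. The log2 fold change was 0.20 ± 0.13, with a 95% confidence interval of -0.11 to 0.50 (adjusted p = 0.317 by limma). When libraries that deviated more from the fit of their group were given less weight, Dsc3 was called higher (adjusted p = 0.0488 by limma).

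Of desmocollin FPKM, Dsc1 held 60.6% ± 5.45 with MC903 and 46.7% ± 2.65 with phytic acid (SD, n = 4), and Dsc3 37.0% ± 5.14 and 52.4% ± 2.46. Dsc1 was the larger part in all 4 MC903 libraries and Dsc3 in all 4 phytic acid libraries. Summed over the 6 cadherins, however, the level was 749.5, 936, 918 and 775 FPKM with MC903 and 757, 876, 934 and 759 with phytic acid. The means of these sums, 845 ± 95.8 and 832 ± 88.0, differed by far less than the spread between libraries, so the loss of 4 cadherins and the rise of Dsg1a left the sum in the same range.

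The cadherin genes lie side by side. In GRCm38 coordinates (equal to mm10) of GENCODE M21, 9 cadherin genes occupy 644 kb of chromosome 18, from 19960930 to 20604521. Dsc3, Dsc2 and Dsc1 are on the minus strand and Dsg1c, Dsg1a, Dsg1b, Dsg4, Dsg3 and Dsg2 follow on the plus strand. No other protein-coding gene lies within this stretch. Dsg1a (20310811 to 20343350) and Dsg1b (20376729 to 20410196), which moved apart, are separated by 33378 bases. Dsg3, which fell, spans 20510274 to 20547459 and is followed after 10614 bases by Dsg2, which was not called. Dsc3 (19960930 to 20002351) and Dsc2 (20030633 to 20059554) were likewise neighbours, 1 not called and the other with the largest fall of the 10. The plaque genes are each on another chromosome: Pkp1 on chromosome 1 (135871395 to 135919207), Pkp3 on 7 (141078218 to 141090510), Jup on 11 (100368958 to 100397763) and Dsp on 13 (38151294 to 38198577). All are protein-coding, and the values are FPKM per gene rather than per transcript.

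Ratios between desmosome genes were then compared within each library, because no scaling of a library can change them. They restate the values above and are not independent of them. Each ratio was compared between groups by a two-sided exact permutation test over the 8 libraries, whose smallest possible p is 0.0286. Of 7 ratios, 6 did not overlap between the groups and gave that smallest p in the exact test, with an adjusted p of 0.0333 by Benjamini-Hochberg over the 7.

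The log2 ratio of summed Dsg1a and Dsg1b to Dsg3 was 1.42, 1.88, 2.38 and 1.22 with MC903 and 3.46, 3.61, 3.81 and 3.15 with phytic acid. This is a 3.44-fold rise, or 1.78 ± 0.29 (SE) on the log2 scale. The log2 ratio of Dsg1b to Dsg1a fell by 2.37, a 5.17-fold change and the widest of the 7. Dsc1 over Dsc3 was 1.95, 1.83, 1.18 and 1.72 with MC903 and 0.845, 0.972, 0.970 and 0.790 with phytic acid, so the order of these desmocollins turned. Dsc2 over Dsc3 fell 4.09-fold and Dsc1 over Dsc2 rose 2.22-fold. That last ratio no longer passed once 1 FPKM was added to each side (exact permutation p = 0.0857).

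**Figure D3:**
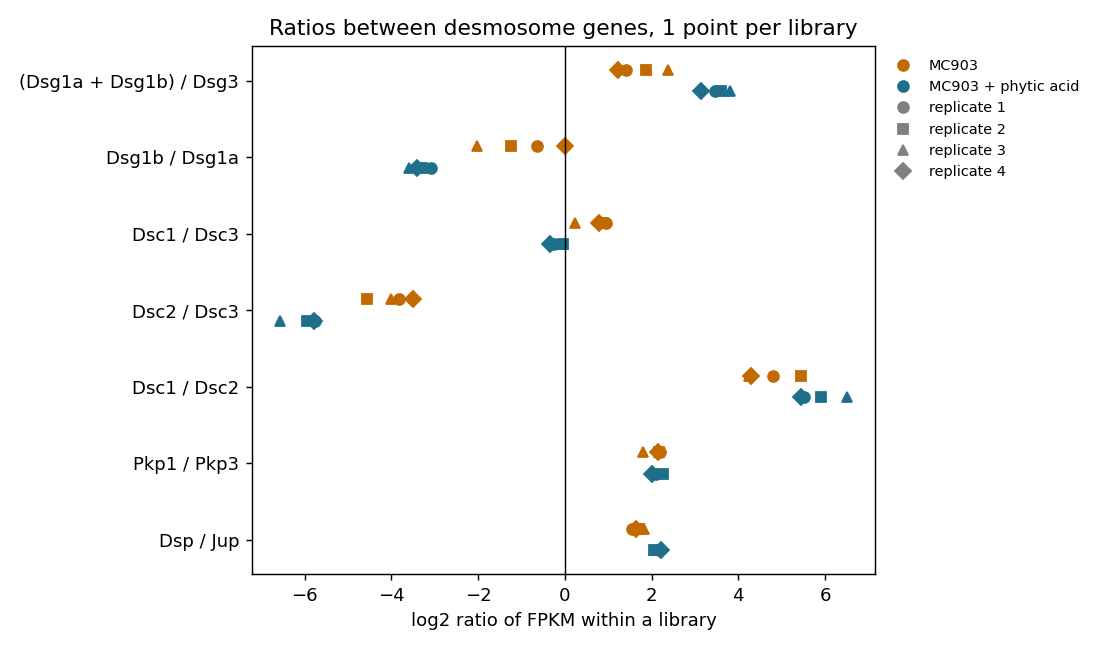
Log2 ratios of FPKM between desmosome genes within a library (x axis), 1 point per library, by ratio (y axis) and group (colour). The groups are apart for 6 of the 7 ratios and overlap for Pkp1 over Pkp3.

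The plaque genes fell, apart from desmoplakin. Pkp1, the most abundant plakophilin of the epidermis, whose loss causes skin fragility in people, stood at 379, 414, 323 and 453 FPKM with MC903 and at 197, 272, 212 and 172 with phytic acid. The groups did not overlap. Pkp1 fell from 392 ± 54.9 to 213 ± 42.6 FPKM (log2 fold change -0.88 ± 0.17, adjusted p = 0.00518 by limma).

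Pkp3, a plakophilin that binds nearly all desmosomal cadherins, fell by almost the same amount. Its values were 83.2, 92.1, 93.1 and 103 FPKM with MC903 and 46.0, 56.4, 49.6 and 43.1 with phytic acid, with a wide gap between the groups. The log2 fold change was -0.92 ± 0.11 (adjusted p = 0.000769 by limma). The log2 ratio of Pkp1 to Pkp3 was 2.07 ± 0.18 (SD, n = 4) with MC903 and 2.12 ± 0.11 with phytic acid, a difference of 0.04 ± 0.11 (SE; exact permutation p = 0.743). Its sign turned when MC903 replicate 3 (-0.05) or phytic acid replicate 2 (-0.01) was left out.

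Jup encodes plakoglobin, the plaque protein shared by desmosomes and adherens junctions. It stood at 107, 104, 109 and 127 FPKM with MC903 and at 66.5, 94.3, 71.9 and 54.8 with phytic acid. Phytic acid replicate 2 came closest to the MC903 range without reaching it. The mean went from 112 ± 10.7 to 71.9 ± 16.6 FPKM (log2 fold change -0.65 ± 0.16, adjusted p = 0.0155 by limma).

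Dsp encodes desmoplakin, the plakin that anchors keratin filaments. It stood at 313, 336, 386 and 398 FPKM with MC903 and at 301, 389, 297 and 256 with phytic acid. The groups overlapped, because phytic acid replicate 2 lay among the highest MC903 libraries. The log2 fold change was -0.21 ± 0.15, with a 95% confidence interval of -0.56 to 0.13 (adjusted p = 0.334 by limma). Phytic acid replicate 2 also had the highest Pkp1, Pkp3 and Jup of its group. The ratio of Dsp to Jup, in which a level shared by both genes cancels, was 2.92, 3.25, 3.54 and 3.12 with MC903 and 4.52, 4.13, 4.13 and 4.67 with phytic acid. This 1.36-fold rise did not overlap between groups (exact permutation p = 0.0286), so Jup fell relative to Dsp.

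Dsp and Jup are the 2 of the 10 genes whose promoters are in the RefSeq promoter table, and they are shown because their ratio changed while they share the plaque. Each line gives the 250 bases before the RefSeq start (GRCm38.p6), read 5′ to 3′ on the gene's strand. Dsp is at chr13:38151044-38151293 on the plus strand and Jup at chr11:100397791-100398040 on the minus strand. Capitals mark matches on either strand to the GC box (GGGCGG) or the CCAAT box (CCAAT).

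Dsp: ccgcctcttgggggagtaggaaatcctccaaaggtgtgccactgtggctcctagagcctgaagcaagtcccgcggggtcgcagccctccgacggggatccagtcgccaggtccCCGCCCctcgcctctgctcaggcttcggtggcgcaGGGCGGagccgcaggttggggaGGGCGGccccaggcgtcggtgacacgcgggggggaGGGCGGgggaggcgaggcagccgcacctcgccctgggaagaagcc
Jup: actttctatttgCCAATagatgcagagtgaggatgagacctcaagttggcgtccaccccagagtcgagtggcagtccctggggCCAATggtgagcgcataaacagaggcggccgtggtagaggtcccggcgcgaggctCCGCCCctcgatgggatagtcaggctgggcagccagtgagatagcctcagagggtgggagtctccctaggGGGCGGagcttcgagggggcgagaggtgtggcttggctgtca

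The Dsp promoter holds 4 GC boxes and no CCAAT box, and is 72.4% G or C. The Jup promoter holds 2 GC boxes and 2 CCAAT boxes and is 62.0% G or C, against a median of 52.4% over 32851 promoters of the table. A GC box occurs in 32.7% and a CCAAT box in 33.8% of those promoters. Neither window held the AP-1 motif (TGACTCA or TGAGTCA, in 4.46% of promoters), the grainyhead-like motif (AACCGGTT, 0.116%), a TATA box (TATAAA, 12.4%) or the E-box CACGTG (6.02%). These matches describe the letters of the windows only.

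The order of the 10 genes by level per length was different in the groups. With MC903 it ran from Pkp1 through Dsp, Dsc1, Dsc3, Dsg1a, Jup, Pkp3, Dsg1b and Dsg3 to Dsc2. With phytic acid Dsg1a came first, followed by Dsp, Dsc3, Pkp1, Dsc1, Jup, Pkp3, Dsg1b, Dsg3 and Dsc2. The ranges of neighbours overlapped within the MC903 group for Pkp1, Dsp and Dsc1, for Dsc3, Dsg1a and Jup, and for Pkp3, Dsg1b and Dsg3. Within the phytic acid group they overlapped for Dsg1a and Dsp, for Dsc3, Pkp1 and Dsc1, for Jup and Pkp3, and for Dsg1b and Dsg3, so the order within each of these sets is not resolved. Dsg1a had the fifth highest mean with MC903 and the highest with phytic acid, although Dsp was above it in phytic acid replicates 1 and 2. In MC903 replicate 4 Dsg1a was also below Jup, Pkp3 and Dsg1b. Dsc2 stood clear of all others in both groups.

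**Figure D4:**
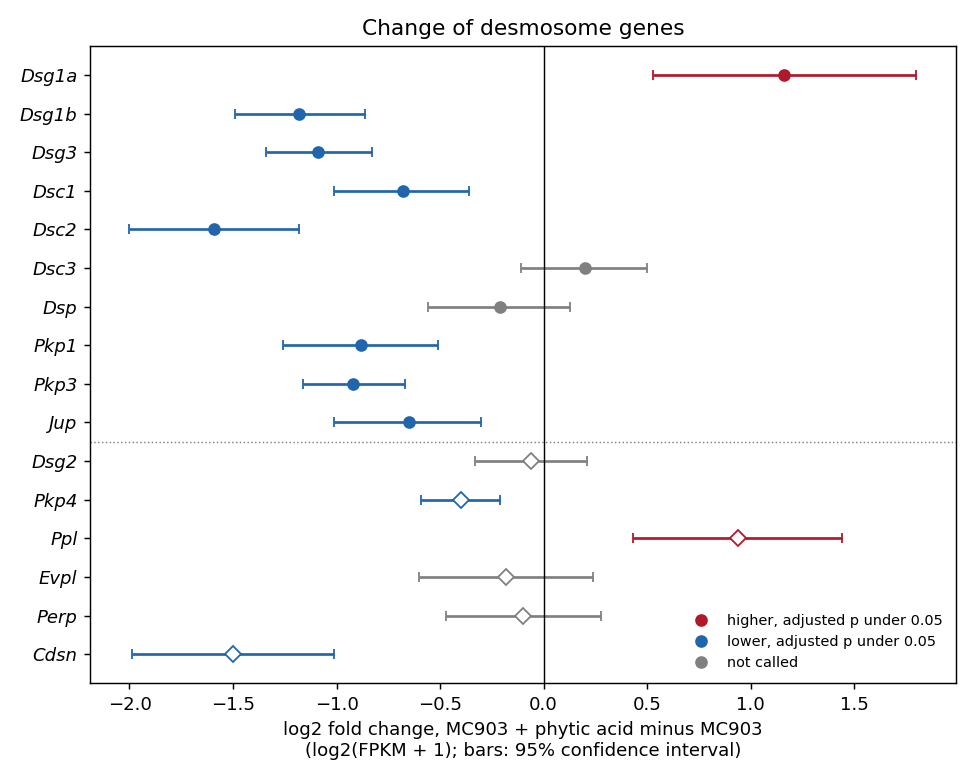
Log2 fold change (x axis, MC903 plus phytic acid minus MC903) with 95% confidence interval for the 10 desmosome genes (filled circles, above the dotted line) and 6 further desmosome genes that passed the filter (open diamonds). Dsg1a and Ppl lie to the right of 0, while Dsc3, Dsp, Dsg2, Evpl and Perp have intervals that cross 0.

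Further genes of the desmosome and its cornified form were split as well. Of 9 such genes, 6 passed the expression filter, of which 1 was called higher and 2 lower (median -0.14 on the log2 scale). For this and the lists below, the share called over all tested genes was 25.8%, with 14.2% higher and 11.6% lower. Ppl (periplakin), a plakin of the cornified envelope, rose from 34.6, 43.6, 75.1 and 42.1 FPKM with MC903 to 80.6, 111, 99.1 and 75.3 with phytic acid (0.94 ± 0.23, adjusted p = 0.0152 by limma). MC903 replicate 3, the highest of its group as for Dsg1a, lay just under the lowest phytic acid value. Evpl (envoplakin), with which periplakin pairs, was not called (-0.18 ± 0.19, adjusted p = 0.508 by limma). Cdsn (corneodesmosin), the glycoprotein that coats desmosomes of the outermost layers, fell from 684 ± 177 to 236 ± 37.2 FPKM (-1.50 ± 0.22, adjusted p = 0.00176 by limma).

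Pkp4 fell from 16.3 ± 0.951 to 12.1 ± 0.811 FPKM (-0.40 ± 0.09, adjusted p = 0.00938 by limma). With libraries centred on the epithelial markers this call was lost (-0.33 ± 0.13, adjusted p = 0.0854 by limma). Perp, a tetraspan protein of desmosomes, was the most abundant gene of this list and was not called (1520 ± 124 and 1429 ± 193 FPKM). Dsg2, the desmoglein of simple epithelia, stood at 4.70 ± 0.851 and 4.44 ± 0.383 FPKM and was not called either. Dsg1c, Dsg4 and Pkp2 were below the filter, Pkp2 (plakophilin 2, known from heart) at 0.953 to 1.43 FPKM with MC903 and 0.568 to 0.865 with phytic acid. Dsg4, the hair shaft desmoglein, was at 0.145, 0.144, 20.2 and 0.669 FPKM with MC903 (replicates 1 to 4) and ranged from 0.127 to 0.381 with phytic acid. Its single high value was in the library with the high hair follicle markers. Dsg1c, the remaining Dsg1 copy, did not exceed 0.520 FPKM in any library.

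Keratins are the filaments that desmosomes anchor. Of 11 tested epidermal keratins, 3 rose and 5 fell (median -0.43). The rises of smallest p were those of the suprabasal Krt77 (6.38 ± 0.70) and the basal Krt15 (1.99 ± 0.20), and the falls those of the wound keratins Krt6a (-4.02 ± 0.41) and Krt16 (-3.99 ± 0.41). Of 10 genes of adherens junctions, the other cadherin junction of keratinocytes, 3 were called, a share near the 25.8% of all tested genes. All 3 fell, and the median of the list was -0.20. Cdh3 (P-cadherin) fell from 14.8 ± 3.94 to 7.32 ± 0.986 FPKM, and Nectin1 fell by a log2 fold change of -0.78 ± 0.17. Without MC903 replicate 3, 2 adherens junction genes were called higher.

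Hemidesmosome genes, which fix basal cells to the basement membrane, showed 1 rise and 1 fall among 9 tested (median 0.18), a share near the 25.8% of all tested genes. Dst (dystonin, a plakin of hemidesmosomes) rose (0.63 ± 0.11). The number of the list called lower was 0 without MC903 replicate 2 or phytic acid replicate 1 and 2 without MC903 replicate 3, and 2 were called higher without phytic acid replicate 4. Genes for turnover of corneodesmosomes were mainly lower. Most of this list are kallikreins, some of which cut desmoglein 1, desmocollin 1 or corneodesmosin at the skin surface, and it also holds protease inhibitors. Of 11 tested, 1 rose and 7 fell (median -0.78). Klk13 fell from a range of 65.9 to 251 FPKM to one of 9.98 to 15.1, and Klk6 from 488 ± 153 to 122 ± 40.2, while Klk5 rose from 61.6 ± 14.6 to 94.8 ± 9.82. The call of Klk5 was lost without MC903 replicate 1 or 4.

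Among 12 regulators known for epidermal adhesion and differentiation, 1 rose and 2 fell (median -0.21), again a share near the 25.8% of all tested genes. Grhl3 rose (0.59 ± 0.14, adjusted p = 0.0129 by limma). Zfp750 fell (-0.64 ± 0.14, adjusted p = 0.00993 by limma). Grhl1, known as an activator of desmoglein 1 genes, was not called, at 47.3 ± 9.64 and 54.4 ± 11.2 FPKM. Trp63, the master factor of stratified epithelium, was not called either (40.8 ± 7.97 and 36.3 ± 1.21 FPKM).

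**Figure D5:**
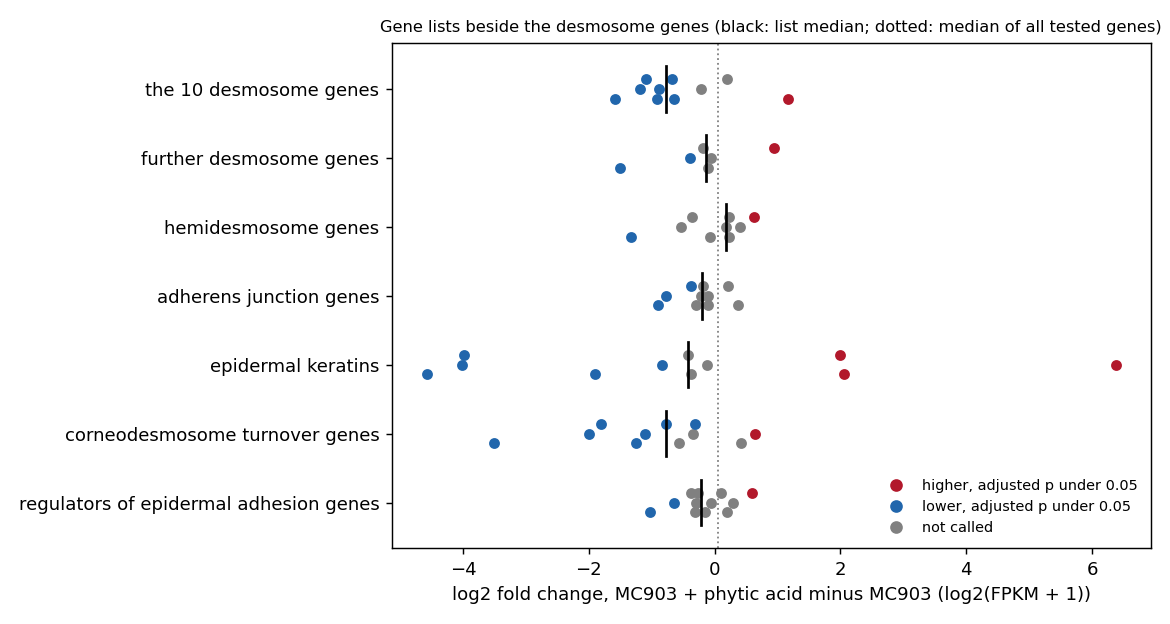
Log2 fold changes (x axis) of the tested genes of each list (y axis), 1 point per gene, with the list's median as a black bar and the median of all tested genes (0.05) as a dotted line. The 10 desmosome genes and the corneodesmosome turnover genes have medians of -0.78, and the epidermal keratins spread the widest.

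Likeness of profile was measured as the root mean square difference between log2(FPKM + 1) values over the 8 libraries, each gene centred on its own mean. Among the 10, Pkp1 and Pkp3 were the closest pair (0.13). Jup was nearest to Pkp1 (0.16), and Dsg1b and Dsg3 were nearest to each other (0.18). Dsg1a stood furthest from the others, its nearest being Dsc3 at 0.56. Outside the 10, the closest to Dsg1a were Tmem159 and Asah2 (0.16 each) and to Dsg1b Lypd3 (0.12) and Bdkrb2 (0.13). Dsg3 lay nearest to Epha2 (0.0688) and Cnfn (0.0913), and Dsc2 to Igsf3 (0.20) and Smox (0.23). For Dsc1 these were Rnf39 (0.0874) and Gipc1 (0.10), and for Dsc3 Ptdss1 (0.0779) and Tlcd3a (0.0845). Pkp1 was closest to Ttc22 (0.0816) and Cpeb2 (0.10), and Pkp3 to Proser2 (0.0683) and Fam83h (0.0853). Jup was closest to Nol6 (0.0913) and Myo10 (0.11), and Dsp to Trim11 (0.0644) and Xpo6 (0.0693). These genes were the nearest of all tested genes and were picked for their likeness, so the distances are a description.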

How the data were processed

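The authors deposited a table of FPKM per gene and library. Per the submitters' processing notes, cutadapt, HISAT2, TopHat2 and DESeq were used with mm10, and which of them made the FPKM is not stated. Versions, annotation, strand setting and the handling of reads matching several genes: not given in the sources used here. Unnamed rows (51, holding 0.016% to 0.0238% of column sums) were left out, and for 21 repeated names the row of highest mean was kept. FPKM times exon length (GENCODE M21) gave values within 0.05 of whole reads in all libraries for 97.4% of 17980 genes, and from these the library totals. Values were analysed as log2(FPKM + 1), which understates changes of low genes, with limma 3.58.1 in R 4.3.3 (lmFit, eBayes with trend, group as the single factor, two-sided). Alternatives included limma voom on the recovered reads. Ratios had 0.01 FPKM added to each side and were tested with scipy 1.17.1. The procedure was tested on simulated data. The members and lists were chosen with earlier results of these data known. Named outside the 10 genes were all further desmosome genes, up to 2 called genes per direction of each other list, and the 2 nearest profiles per gene; some genes that this rule names are not reported here. Krt5, Krt14, Grhl1 and Trp63 were added after their values were seen.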

Additional observations from a re-analysis of the deposited data

Results flagged for a closer look

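In groups of 4, a library was marked when its gap to the nearest other, as a share of the group's range, exceeded Dixon's critical value. Of 52 groups of values examined, 6 were marked, and chance marks about 1 in 20. MC903 replicate 3 was marked in 5 of the 6, and it also had the highest hair follicle marker sum (4591 FPKM). It was high in Dsg4 (20.2 FPKM), Dsg2 (5.97 FPKM) and Dsg1c (0.520 FPKM), low in Cdsn (420.3 FPKM) and low in the log2 ratio of Pkp1 to Pkp3 (1.80). Without this library the log2 fold change of Cdsn was -1.72 ± 0.15 (SE) and that of Ppl 1.16 ± 0.15. In phytic acid replicate 2, Pkp4 was high (13.3 FPKM).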

How the results depend on the processing

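Over 20 alternatives (other pseudocounts, filters, scalings, weights, voom, a replicate block and each library left out), each of the 8 called desmosome genes kept its direction and its call. The log2 fold change of Dsg1a ranged from 0.95 to 1.44 and that of Dsc2 from -1.85 to -1.48, and the highest adjusted p values by limma were 0.0490 for Dsg1a, 0.0484 for Jup and 0.0418 for Dsc1. Dsp was never called, and library weights called Dsc3, which made 2 members higher.

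Over all genes, 3134 calls became 2046 with a replicate block (1098 higher) and 4796 with library weights (2865 higher). Calls higher were 1098 at a mean FPKM of at least 5. Centred on epithelial markers the split of 1722 higher and 1412 lower became 2172 and 805, and centred on basal keratinocyte markers 804 were lower. These shifts moved the median log2 fold change of all genes to 0.12 and 0.11. Leaving out 1 library gave 2013 (without MC903 replicate 1) to 3979 calls, 1072 to 2418 higher and 941 to 1561 lower.

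The labels used here do not say whether replicate numbers pair the libraries. Deviations of same-numbered libraries correlated at -0.28, -0.10, -0.29 and 0.23. Those of libraries with unlike numbers ranged from -0.29 to 0.40, so these correlations cannot settle whether the libraries were paired. With 4 such pairs the exact permutation p cannot go below 0.125, and the replicate block gave that value for log2 differences of 1.78 (summed Dsg1 over Dsg3), -2.37 (Dsg1b over Dsg1a), -0.88 (Dsc1 over Dsc3), -2.03 (Dsc2 over Dsc3), 1.15 (Dsc1 over Dsc2) and 0.45 (Dsp over Jup). Adding 1 FPKM to each side gave 0.90 for Dsc1 over Dsc2.

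With 1 library left out these 6 differences ranged from 1.61 to 2.0, -2.72 to -2.05, -1.04 to -0.80, -2.23 to -1.85, 0.93 to 1.40 and 0.40 to 0.49. There 3 against 4 libraries cannot go below an exact p of 0.0571. For Pkp1 over Pkp3 the range was -0.05 to 0.08, including -0.01, with the sign reversed in 2 cases.

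Counts in lists with 1 library left out were 1 higher and 2 lower for further desmosome genes, 1 to 2 higher and 0 to 2 lower for hemidesmosome, 0 to 2 higher and 2 to 3 lower for adherens junction, 2 to 3 higher and 5 lower for keratin, 0 to 1 higher and 5 to 8 lower for turnover genes, and 1 higher and 2 to 3 lower for regulators. Centred on epithelial markers, 1 further desmosome gene was lower (the call of Pkp4 was lost), 2 hemidesmosome genes and 1 adherens junction gene were higher. The cause of these changes was not tested. Depth limits the values of Dsg1c, at 15 to 80 reads, and of Dsg4, at 16 to 87 reads outside MC903 replicate 3.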
